A study of Mus musculus with 6 samples.

Results

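The 7 genes Gabra2, Gabra3, Gabra4, Gabra5, Gabrb1, Gabrb2 and Gabrd, which encode subunits of the GABA-A receptor, were taken by gene symbol from the 54429 gene rows of RNA sequencing of mouse prefrontal cortex (PFC). The rule that defines the set uses gene symbols and no measured value. All 7 were present in every library, and all 7 were among the 20409 genes that passed the filter on low counts. Each of 3 groups held 2 libraries, described by the study as biological duplicates: WT mice given vehicle (WT), P301S Tau mice given vehicle (Tau), and P301S Tau mice given UNC0642 (UNC0642-treated Tau). All mice were adults of 1 mixed C57BL/6 and C3H background, so the WT and transgenic animals shared that background. P301S Tau mice are the PS19 line, which carries the 1N4R isoform of human tau with the P301S mutation, driven by the mouse prion protein promoter, on top of the mouse's own tau gene. UNC0642, an inhibitor of the histone methyltransferases EHMT1 and EHMT2 (which place the repressive H3K9me2 mark), was injected intraperitoneally on consecutive days, and vehicle was saline with a little DMSO. There was no group of WT mice given UNC0642, so the effect of the compound without the transgene was not measured. The study used both male and female littermates.

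GABA-A receptors are chloride channels opened by GABA, the main inhibitory transmitter of the cortex, and each is a ring of subunits drawn from several families. The usual receptor combines alpha and beta subunits with either a gamma subunit, which is typical of synapses, or the delta subunit, which is typical of receptors outside synapses that respond to low ambient GABA. The alpha subunit sets much of the pharmacology of the receptor: receptors with alpha2, alpha3 or alpha5 and a gamma subunit bind classical benzodiazepines, whereas those with alpha4 do not. The messenger RNA of these subunits was measured here in bulk tissue, in which fewer cells of a type and less RNA per cell cannot be told apart.

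Library totals ran from 17005664 to 28972176 counts. The targeted transgene is human and was read only through genes that can take its reads. Prnp, whose promoter and flanking sequence drive the transgene, was at 1652 CPM (counts scaled to library size by TMM) in the library labelled WT replicate 1, at 873 in WT replicate 2 and at 1470 to 1694 in the 4 libraries of P301S Tau mice. Mapt, the tau gene, gave 576 CPM in the library labelled WT replicate 1, 449 in WT replicate 2 and 571 to 614 in the P301S Tau libraries. The library labelled WT replicate 1 thus lay with the transgenic libraries in both genes, which goes against its label. Differences of the 7 genes from WT, and of the other GABA genes named below that passed against WT, are also given without it. The count of the X-inactivation RNA Xist was 4104 to 8107 in WT replicate 2 and both Tau libraries, and 2 to 5 in the library labelled WT replicate 1 and both UNC0642-treated libraries, with the Y-linked Ddx3y at 2 to 18 and 1705 to 2411 counts in the same sets. Both Tau libraries were therefore of 1 sex and both UNC0642-treated libraries of the other, so that treatment and sex cannot be told apart in that pair of groups. WT replicate 2 had the sex of the Tau libraries, and the library labelled WT replicate 1 that of the treated libraries. Without the latter, treated Tau and WT mice therefore also differed in sex. Without WT replicate 2 the same held for Tau and WT mice. Group and sex cannot be told apart in those fits. Tau replicate 2 held the highest summed CPM of 9 oligodendrocyte markers (5533, against 1463 to 2970 elsewhere) and of the 10 striatal projection neuron markers of 12 that were tested (263, against 114 to 134). Summed CPM of 16 interneuron markers was 655 to 752 and of 12 cortical excitatory neuron markers 2706 to 3324, so markers of cortical neurons were present in every library. Ehmt1 (43.6 to 49.0 CPM) and Ehmt2 (131 to 161 CPM), which encode the enzymes that UNC0642 inhibits, overlapped between the 3 groups.

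The genes lie on 5 chromosomes (GRCm38, GENCODE M21). Gabra2 (chr5:70957597-71095849, minus strand), Gabra4 (chr5:71569749-71658308, minus strand) and Gabrb1 (chr5:71658113-72149037, plus strand) follow Gabrg1 in a cluster of 1398 kb on chromosome 5. Gabra5 is at chr7:57407672-57510059 (minus strand), Gabrb2 at chr11:42419757-42629028 (plus strand), Gabra3 at chrX:72432681-72656848 (minus strand) and Gabrd at chr4:155384980-155398112 (minus strand). Gabra4 and Gabrb1 run away from each other and share 46 exonic bases on opposite strands, which is 0.756% of the exons of Gabra4. Gabra5 shares 148 exonic bases, 4.98% of its exons, with Gm9962 on the opposite strand. The libraries were stranded, but the strand setting of the counting was not given in the sources used here, so reads in these shared bases may belong to either gene.

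The promoters of Gabra2, Gabra4 and Gabrb1 are shown because these genes are neighbours at 1 locus and only Gabra2 of them passed the test in any comparison, and that of Gabra5 because its WT libraries lay in the opposite order to those of Gabra2. Each sequence is from RefSeq (GRCm38.p6) and covers 300 bases that end shortly after a transcription start. It is written 5′ to 3′ on the gene's strand and has its CpG dinucleotides in capitals. The Gabrb1 stretch shown ends upstream of the GENCODE start of that gene (71658113).
Gabra2 (chr5:71095800-71096099, minus strand): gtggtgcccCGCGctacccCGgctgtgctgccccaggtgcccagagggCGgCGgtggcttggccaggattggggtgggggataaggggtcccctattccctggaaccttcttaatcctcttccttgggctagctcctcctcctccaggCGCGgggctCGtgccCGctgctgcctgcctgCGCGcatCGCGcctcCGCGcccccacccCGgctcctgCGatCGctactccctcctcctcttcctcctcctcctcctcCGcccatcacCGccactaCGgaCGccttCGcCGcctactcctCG
Gabra4 (chr5:71658259-71658558, minus strand): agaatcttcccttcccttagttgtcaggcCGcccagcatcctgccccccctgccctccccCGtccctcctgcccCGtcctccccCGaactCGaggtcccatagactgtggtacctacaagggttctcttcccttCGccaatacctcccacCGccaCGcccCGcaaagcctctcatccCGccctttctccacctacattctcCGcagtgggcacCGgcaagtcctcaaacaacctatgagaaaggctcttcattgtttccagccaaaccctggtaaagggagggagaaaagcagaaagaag
Gabrb1 (chr5:71657671-71657970, plus strand): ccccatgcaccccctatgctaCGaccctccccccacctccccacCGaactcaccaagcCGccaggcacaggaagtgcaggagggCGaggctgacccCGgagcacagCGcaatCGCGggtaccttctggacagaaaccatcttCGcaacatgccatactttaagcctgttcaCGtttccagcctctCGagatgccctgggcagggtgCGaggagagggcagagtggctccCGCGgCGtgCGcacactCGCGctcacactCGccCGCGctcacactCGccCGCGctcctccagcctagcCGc
Gabra5 (chr7:57510010-57510309, minus strand): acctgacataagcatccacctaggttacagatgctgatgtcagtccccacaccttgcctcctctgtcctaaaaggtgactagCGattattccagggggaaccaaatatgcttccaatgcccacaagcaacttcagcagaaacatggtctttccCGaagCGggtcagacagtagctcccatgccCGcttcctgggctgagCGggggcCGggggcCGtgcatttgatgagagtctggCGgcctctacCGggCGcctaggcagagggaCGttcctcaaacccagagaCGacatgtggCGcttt
The Gabra2 promoter and the Gabrb1 promoter shown each held 25 CpG dinucleotides, more than 81.6% of the 32851 promoters of the table, in which the median was 7. A second listed Gabrb1 promoter (chr5:71699682-71699981, plus strand) held 9. Gabra5 held 13 and Gabra4 held 12, close to the 9 to 11 of the 3 listed Gabrb2 promoters. Neither of the 2 listed Gabra3 promoters held any CpG dinucleotide, and their GC content was 43.0% and 39.3% against a median of 52.7%. The letters TATAAA, searched on both strands and present in 13.6% of all promoters, were found in both Gabra3 promoters, which overlap each other, and in 1 of the 3 Gabrb2 promoters. No promoter state was measured in these libraries.

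The first question was whether the subunit genes differed between P301S Tau and WT mice. None of the 7 passed the test, which was an unadjusted p under 0.05 with a fold change of at least 1.2 in edgeR's quasi-likelihood test, the threshold the study states. Of all genes tested, 9.81% passed it in this comparison. The differences of the 7 genes on the log2 scale ran from 0.00 to 0.14, with a median of 0.04 beside -0.00011 over all genes. In 2 of 7 genes, Gabra4 and Gabrb2, the libraries of the 2 groups did not overlap, which held for 43.2% of all genes. All 7 of the 95% intervals lay within a 1.5-fold change in either direction, from 0.839-fold to 1.29-fold at their widest.

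The second question was whether UNC0642 moved the genes in P301S Tau mice. Again none of the 7 passed, where 7.69% of all genes did. The log2 differences ran from -0.10 for Gabrb1 to 0.14 for Gabra2, with a median of -0.0031 beside -0.0024 over all genes. The libraries did not overlap in 2 of 7 genes, Gabra2 (higher with UNC0642) and Gabra4 (lower), against 41.3% of all genes. The 95% intervals again lay within 1.5-fold for all 7 genes, between 0.790-fold and 1.31-fold. The comparisons share libraries with each other and are not independent.

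Gabra2 was the 1 gene of 7 that passed when UNC0642-treated Tau mice were set against WT mice, a comparison in which 9.47% of all genes passed and 3.77% passed upward. The median of the 7 log2 differences was 0.05, beside -0.01 over all genes. The other 6 genes had log2 differences between -0.07 and 0.10 and unadjusted p-values of 0.256 to 0.778 (edgeR). Libraries did not overlap in Gabra2 and Gabrb2, both higher in the treated group, against 44.4% of all genes. Intervals lay between 0.811-fold and 1.43-fold.

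**Figure D1:**
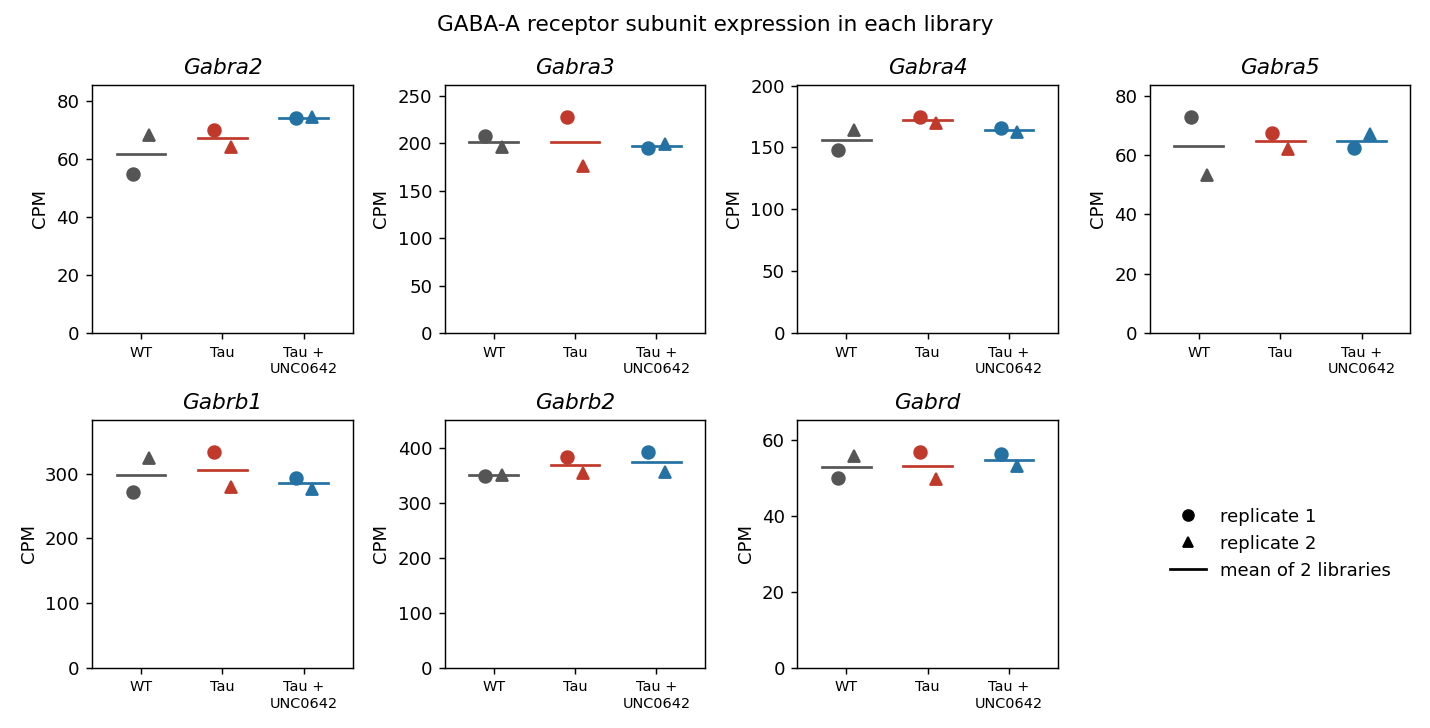
Expression of the 7 subunit genes in each library, in CPM on linear axes from 0, with circles for replicate 1, triangles for replicate 2 and a line at the mean of the 2 libraries of a group. Gabra2 was lowest in the library labelled WT replicate 1 (54.9 CPM) and highest in both UNC0642-treated libraries (74.1 and 74.3), whereas Gabra5 was highest in the former (72.8) and lowest in WT replicate 2 (53.2).

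**Figure D2:**
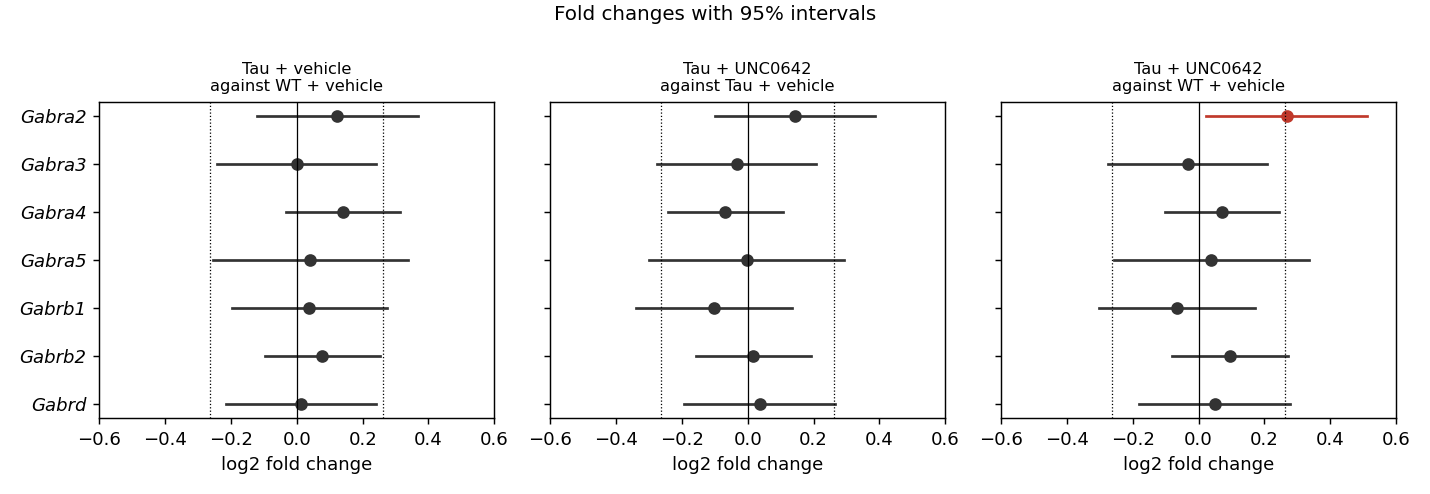
Log2 fold changes (points) with 95% intervals (bars) of the 7 genes in the 3 comparisons, with dotted lines at a 1.2-fold change in either direction. Only Gabra2 between UNC0642-treated Tau and WT mice, in red, passed the test (0.27, interval 0.02 to 0.51).

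Gabra2 encodes alpha2, a synaptic subunit that is rich at the axon initial segment of pyramidal cells. Its CPM in replicates 1 and 2 was 54.9 and 68.4 (WT), 69.9 and 64.2 (Tau), and 74.1 and 74.3 (UNC0642-treated). Both treated libraries lay above the other 4, and the library labelled WT replicate 1 lay below all others, while the remaining WT library fell between the 2 Tau libraries. UNC0642-treated Tau mice had 74.2 ± 0.184 CPM against 61.6 ± 9.56 in WT (SD, n = 2 each), a 1.2-fold rise (95% interval 1.02 to 1.43; log2 0.27, SE 0.11), with an unadjusted p of 0.0344 and an adjusted p of 0.37 by edgeR with Benjamini-Hochberg adjustment over all genes. It did not pass between Tau and WT (log2 0.12, SE 0.11, adjusted p = 0.677) or between treated and vehicle-treated Tau mice (log2 0.14, SE 0.11, adjusted p = 0.744, edgeR).

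The Gabra2 call changed with the WT library kept, and the WT libraries differed in sex. Without the library labelled WT replicate 1 the difference of treated Tau from WT mice was 0.12 on the log2 scale (adjusted p = 0.731 by edgeR), and without WT replicate 2 it was 0.44 (adjusted p = 0.113), where 4.71% of all genes passed upward. Without UNC0642-treated replicate 1 or 2 the log2 difference stayed at 0.27 and 0.26 while its SE grew to 0.15, and the gene did not pass (unadjusted p-values of 0.0978 and 0.107 in edgeR). Where WT replicate 2 was left out, Gabra2 also passed between Tau and WT mice (log2 0.29, adjusted p = 0.307 by edgeR, range over the alternatives 0.307 to 0.936), against 5.03% of all genes that passed upward in that fit. Over all 16 alternatives its adjusted p for treated Tau against WT mice ran from 0.113 to 0.731, and it passed in 10 of them.

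Gabra5 encodes alpha5, the subunit of many extrasynaptic receptors on the dendrites of cortical and hippocampal pyramidal cells. Its CPM in replicates 1 and 2 was 72.8 and 53.2 (WT), 67.6 and 62.0 (Tau), and 62.3 and 67.0 (UNC0642-treated). The 2 WT libraries enclosed all 4 others, and the 2 transgenic groups overlapped. The log2 differences were 0.04 (SE 0.13) between Tau and WT, -0.0031 (SE 0.13) with treatment, and 0.04 (SE 0.13) between treated Tau and WT mice. Without the library labelled WT replicate 1, Gabra5 passed upward in Tau (log2 0.28, with 4.38% of all genes upward) and in treated Tau mice (log2 0.28, with 4.27%) against the remaining WT library. In these fits the edgeR p-values were 0.0271 and 0.0282 unadjusted and 0.422 and 0.397 adjusted, and over all 16 alternatives the adjusted values ran from 0.0942 to 0.976 and from 0.0943 to 0.998. Without WT replicate 2 the same differences were -0.16 and -0.17.

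Gabra2 and Gabra5 were thus in opposite order in the 2 WT libraries, and whether either gene passed against WT turned on which of them was kept. Of all pairs among the 7 genes their patterns over the 6 libraries were the least alike, at a root mean square distance of 0.242 between centred log2 CPM values, and Gabrb2 and Gabrd were the most alike at 0.0588. A term for sex, read from Xist and Ddx3y, was carried entirely by the 2 WT libraries, since each other group held 1 sex only. With that term, Gabra5 passed between Tau and WT mice (log2 0.29, adjusted p = 0.41 by edgeR), where 4.63% of all genes passed upward. With the same term, Gabra2 (log2 0.46, adjusted p = 0.427) passed upward and Gabra5 (log2 -0.45, adjusted p = 0.47) downward between treated and vehicle-treated Tau mice, where 4.04% and 4% of all genes did so (edgeR). Their adjusted p-values for that comparison reached 1 in other alternatives. Gabra2 also passed in treated Tau against WT mice with it (log2 0.44), with 4.83% of all genes upward. The part of sex, and of the transgene reads in the library labelled WT replicate 1, in these values was not tested.

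**Figure D3:**
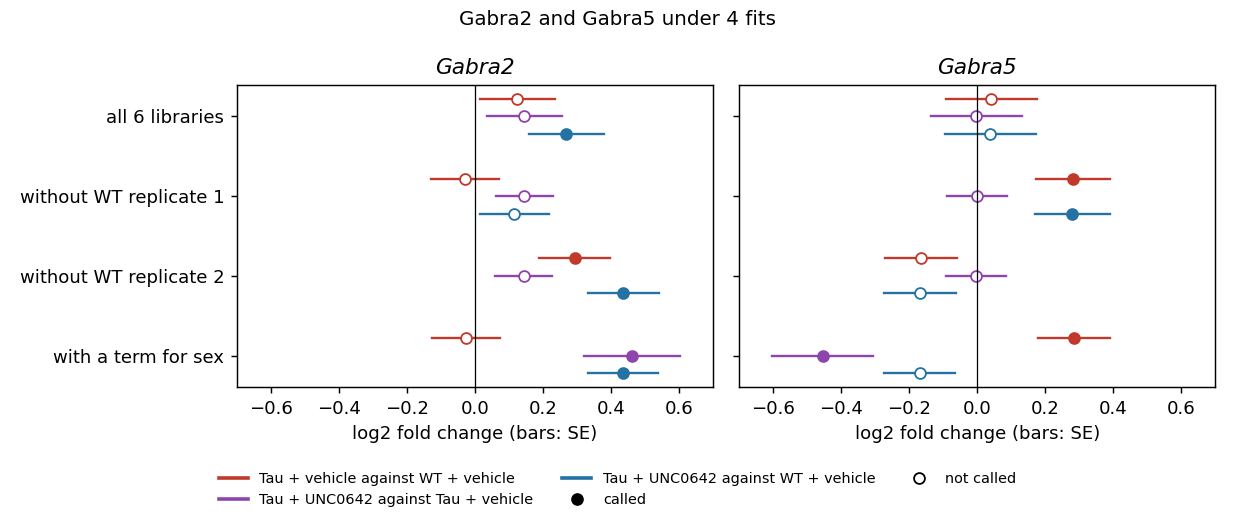
Log2 fold changes of Gabra2 and Gabra5 (points, filled where the gene passed the test) with their standard errors (bars) in 4 fits: all 6 libraries, without either WT library, and with a term for sex. In the comparisons against WT, Gabra2 ran from -0.03 to 0.44 and Gabra5 from -0.17 to 0.29 on the log2 scale over these fits.

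Gabra3 encodes alpha3, a subunit of synaptic receptors that is found in deep cortical layers and in monoaminergic neurons. It gave 207.4 and 196.3 CPM (WT), 227.4 and 175.8 (Tau), and 195.1 and 199.3 (UNC0642-treated). The 2 Tau libraries were the highest and the lowest of all 6, and the group means of 201.8 ± 7.85, 201.6 ± 36.5 and 197.2 ± 2.96 CPM (SD, n = 2 each) differed by less than that spread. The log2 difference was 0.00 (SE 0.11) between Tau and WT mice and -0.03 (SE 0.11) with treatment. Without Tau replicate 1 the first was -0.20 and the second 0.17, and without Tau replicate 2 they were 0.18 and -0.21. Without the library labelled WT replicate 1 the differences from WT were 0.04 in Tau and 0.0052 in treated Tau mice. Gabra3 is on the X chromosome. Its highest and its lowest library were both of the set with high Xist counts, and the part of sex in its values was not tested.

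Gabra4 encodes alpha4, which pairs with delta in receptors outside synapses. It gave 148.2 and 164.4 CPM (WT), 174.4 and 169.9 (Tau), and 166.1 and 162.3 (UNC0642-treated). Both Tau libraries lay above the other 4, and the treated libraries fell on either side of WT replicate 2. The log2 difference was 0.14 (SE 0.08, 95% interval -0.03 to 0.31) between Tau and WT mice and -0.07 (SE 0.08) with treatment, and the adjusted p-values were 0.495 and 0.849 (edgeR). The difference of Tau from WT mice was 0.06 without the library labelled WT replicate 1 and 0.22 without WT replicate 2 (adjusted p-values 0.82 and 0.36 by edgeR, the ends of the range over the 16 alternatives). The fold change was under 1.2 in both. In treated Tau against WT mice the difference was 0.07 (SE 0.08), with -0.0042 and 0.15 without these libraries.

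Gabrd encodes delta itself. Its 49.9 and 55.9 CPM (WT), 56.8 and 49.8 (Tau), and 56.4 and 53.1 (UNC0642-treated) overlapped between all groups, and its log2 differences were 0.01, 0.04 and 0.05 in the 3 comparisons (SE 0.10 each). Those from WT were -0.07 in Tau and -0.03 in treated Tau mice without the library labelled WT replicate 1. Per length of exon, Gabrd made up 38.3% to 41.9% of the sum of Gabrd and Gabra4, with the lowest share in Tau replicate 2.

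The beta subunits form the GABA binding site together with alpha and carry sites of receptor phosphorylation and of anaesthetic action. Gabrb1 gave 272.3 and 324.9 CPM (WT), 333.5 and 279.3 (Tau), and 293.8 and 277.0 (UNC0642-treated). WT replicate 2 and Tau replicate 1 stood above the other 4, and these were also the 2 libraries with the highest sums of excitatory neuron markers (3238 and 3324 CPM, against 2706 to 2868), whose part in the result was not tested. Its log2 difference with treatment was -0.10 (SE 0.11, 95% interval -0.34 to 0.13, adjusted p = 0.825 by edgeR). With both the library labelled WT replicate 1 and Tau replicate 2 left out, which leaves 1 library in each of those groups and only the treated pair to give the spread, it was -0.23 with an adjusted p of 0.0327 (edgeR), the lowest among 16 alternatives that reached up to 1. The fold change stayed under 1.2 there. The differences from WT without the library labelled WT replicate 1 alone were -0.09 in Tau and -0.19 in treated Tau mice, and neither passed.

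Gabrb2, which encodes beta2, gave 349.0 and 351.8 CPM (WT), 384.3 and 355.0 (Tau), and 392.7 and 355.8 (UNC0642-treated). Both WT libraries lay below the other 4, the nearest of which were at 355.0 and 355.8 CPM. The log2 differences from WT were 0.08 (SE 0.08) in Tau and 0.09 (SE 0.08) in treated Tau mice, with adjusted p-values of 0.72 and 0.669 (edgeR). They were 0.07 and 0.09 without the library labelled WT replicate 1. The difference in Tau was 0.02 without Tau replicate 1 and 0.14 without Tau replicate 2, and that in treated mice was 0.02 and 0.16 without UNC0642-treated replicates 1 and 2.

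The order of the 7 genes by level was taken per length, as RPKM (CPM divided by the length of the gene's exons in kilobases), over all 6 libraries. Gabrb2 was highest at 57.4 ± 2.95 RPKM and Gabra3 next at 51.0 ± 4.31 (SD, n = 6). Gabra4 followed at 27.0 ± 1.47, Gabra5 at 21.6 ± 2.24, Gabrb1 at 21.5 ± 1.90, Gabrd at 18.7 ± 1.13 and Gabra2 at 8.85 ± 0.955. In 2 steps of this order, Gabra3 to Gabra4 (1.89-fold) and Gabrd to Gabra2 (2.11-fold), the library ranges did not overlap. Gabrb2 exceeded Gabra3 and Gabrb1 exceeded Gabrd in 6 of 6 libraries although their ranges overlapped, Gabra4 exceeded Gabra5 in 5 of 6, and Gabra5 exceeded Gabrb1 in 3 of 6. With the longest transcript of each gene in place of the union of its exons, the order was the same, but the ranges of Gabrb2 and Gabra3 (1.67-fold) and of Gabra4 and Gabra5 (1.66-fold) also did not overlap.

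**Figure D4:**
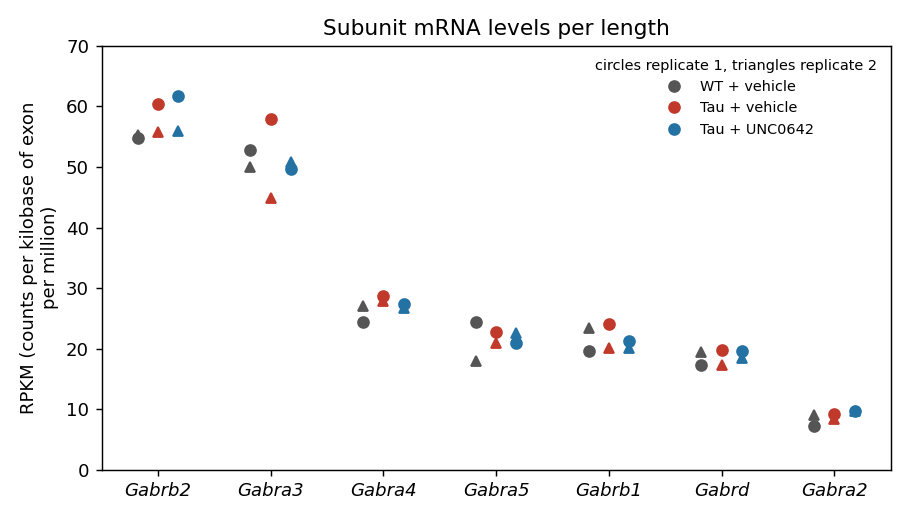
Levels of the 7 genes per length, in RPKM on a linear axis from 0, with 1 point per library coloured by group. The points of Gabrb2 (54.9 to 61.8 RPKM) and Gabra3 (44.8 to 58.0) overlap in part. Gabra4, Gabra5, Gabrb1 and Gabrd lie together at 17.3 to 28.7, and Gabra2 stands alone at 7.18 to 9.73.

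Among the 4 alpha genes, Gabra3 made up 43.9% to 48.9% of the summed RPKM, Gabra4 22.4% to 27.4%, Gabra5 17.2% to 22.5% and Gabra2 6.60% to 9.0%. The Gabra2 share was lowest in the library labelled WT replicate 1 and highest in the 2 UNC0642-treated libraries (9.0% and 8.87%), and the Gabra5 share was highest in the former and lowest in WT replicate 2. Gabrb2 made up 70.2% to 74.4% of the sum of Gabrb1 and Gabrb2. The fitted spread between libraries of the same group, as biological coefficient of variation, ran from 7.02% for Gabra4 to 10.4% for Gabra5. The median over all genes tested was 13.3%, and 62.2% of them had a higher spread than Gabra5. That median covers genes of any level, and the spread was not compared with genes of similar level. The median absolute log2 difference of the 7 genes was 0.04, 0.04 and 0.07 in the 3 comparisons, beside 0.10, 0.07 and 0.11 over the 4578 genes with at least 50 CPM on average.

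The genes outside the GABA lists whose pattern over the 6 libraries was nearest, by the root mean square distance of centred log2 CPM among 10086 genes, were Ube2a (0.0279) and Rgs4 (0.0314) for Gabra2, and Rpf2 (0.0267) and Ddx52 (0.0382) for Gabra5. Those of Gabra3 were Kcnd3 and Cd83, those of Gabra4 were Pim2 and Dtnb, and those of Gabrb1 were Wasl and Fbxo42. Fastkd3 and Dcp1a were nearest to Gabrb2, and Slc30a3 was near to Gabrd. With 6 libraries, such neighbours describe these samples only.

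Around the 7 genes, 62 others of GABA signalling were listed (other subunits, the inhibitory postsynapse, GABA metabolism and transport, GABA-B receptors, chloride transport and neurosteroids), of which 61 were in the files under the listed symbols and 55 were tested. In Tau against WT mice 2 rose and 4 fell, 10.9% of those tested, beside 3.72% and 6.1% of all genes that rose and fell. With treatment 0 rose and 5 fell (9.09%, beside 3.73% and 3.95%), and in treated Tau against WT mice 0 rose and 5 fell (9.09%, beside 3.77% and 5.69%). None of them had an adjusted p under 0.05 in edgeR, which 0.157%, 0.0196% and 0.216% of all genes had. Of the 55 genes, 7, 8 and 12 had an unadjusted edgeR p under 0.05 in the 3 comparisons. Over all 20409 genes tested, 2529, 1808 and 2468 did. The lists were chosen with earlier results of these data known, so these counts are not a result about the lists. The counts ran from 3 (without Tau replicate 2) to 10 (without Tau replicate 1) in the first comparison, from 1 (without UNC0642-treated replicate 2) to 9 (without Tau replicate 2) in the second, and from 4 to 10 (without WT replicate 2) in the third. Without the library labelled WT replicate 1, Mdga1, Slc6a11, Hap1 and Dbi no longer passed against WT, and Plcl2, Slc6a13, Kctd12, Nlgn2 and Shisa7 did. Without WT replicate 2, Slc6a13 (log2 -0.48) and Kctd12 (log2 -0.33) no longer passed in Tau against WT mice. The only WT library was then the one labelled WT replicate 1, whose Prnp and Mapt go against that label. In that fit the log2 differences in Tau were -1.68 for Mdga1 and -0.68 for Slc6a11. In treated Tau mice they were -0.79 for Slc6a11 and -0.70 for Dbi. The differences without the library labelled WT replicate 1 are given below.

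Of the 12 other subunits, 6 were tested and the remaining 6 had at most 13 counts in any library. Gabrg3, a gamma subunit, fell by 0.27 on the log2 scale with treatment (SE 0.09, adjusted p = 0.453 by edgeR), from 73.3 and 71.2 CPM in Tau to 61.8 and 57.9. Gabrg1, next to Gabra2 in the chromosome 5 cluster, did not pass in any comparison.

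In the inhibitory postsynapse (22 genes tested), Nlgn2 and Shisa7 both fell with treatment and against WT. Nlgn2, an adhesion protein of inhibitory synapses, fell by 0.36 (SE 0.16) and 0.62 (SE 0.16) on the log2 scale (adjusted p-values 0.549 and 0.179 by edgeR), from 127.9 and 164.7 CPM in WT and 141.1 and 102.8 in Tau to 103.6 and 86.4 in treated Tau mice, whose libraries overlapped with those of Tau. Shisa7, an auxiliary subunit of GABA-A receptors, fell by 0.38 (SE 0.14) and 0.52 (SE 0.14). Hap1, which takes part in receptor transport, fell in treated Tau against WT mice (log2 -0.38, SE 0.16), Plcl2 rose in Tau against WT (log2 0.33, SE 0.09) and Mdga1, which binds neuroligins, fell there (log2 -1.16, SE 0.36). Without the library labelled WT replicate 1 these were -0.26 for Hap1, 0.28 for Plcl2 and -0.34 for Mdga1, and Nlgn2 and Shisa7 were at -0.80 and -0.68 against WT. Mdga1 was highest, at 18.02 CPM, in the library labelled WT replicate 1 and lay between 4.92 and 9.0 CPM in the other 5. Nsf and Gabarapl1, the trafficking genes with the most counts in this list, did not pass in any comparison.

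Among the 9 genes of GABA synthesis, breakdown and transport, the GABA transporters Slc6a11 (log2 -0.40, SE 0.16) and Slc6a13 (log2 -0.72, SE 0.25) fell in Tau against WT mice, and Slc6a11 also in treated Tau mice (log2 -0.51, SE 0.16). The Slc6a11 differences were -0.046 and -0.16, and that of Slc6a13 was -0.92, without the library labelled WT replicate 1. Slc6a11 was at 137.7 CPM in the library labelled WT replicate 1 and at 78.6 to 88.5 in the other 5, so that WT replicate 2 lay next to the P301S Tau libraries. Gad1, which makes GABA, was likewise at 448.6 CPM in that library and at 266.2 to 315.9 in the other 5, and did not pass. Kctd12, an auxiliary subunit of GABA-B receptors, fell in Tau against WT mice (log2 -0.35, SE 0.13, and -0.38 without the library labelled WT replicate 1), whereas the receptor genes Gabbr1 and Gabbr2 did not pass.

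None of the 6 chloride genes passed, among them Slc12a5, the neuronal chloride exporter, and the kinase Wnk1. Of the 6 neurosteroid genes, Dbi, which encodes a peptide that binds GABA-A receptors at the benzodiazepine site, fell with treatment (log2 -0.56, SE 0.15, adjusted p = 0.395 by edgeR), from 54.4 and 66.4 CPM in Tau to 39.7 and 42.0, and against WT (log2 -0.48, SE 0.15), where the WT libraries were at 66.2 and 47.9 and the difference was -0.23 without the library labelled WT replicate 1. Srd5a1, an enzyme of neurosteroid synthesis, fell with treatment from 4.68 and 3.95 to 2.84 and 2.43 CPM (log2 -0.72, SE 0.26). Star, which carries cholesterol into mitochondria, did not pass.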

How the data were processed

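PFC RNA of 6 libraries was sequenced with stranded total RNA libraries depleted of ribosomal RNA. The authors trimmed reads with Cutadapt, aligned them with TopHat2 at default parameters, as they state to mouse RefSeq mRNAs, and deposited featureCounts counts per gene symbol without normalization. The submitters' processing notes name mm10, TopHat2, SAMtools, featureCounts and edgeR, and their versions and the strand setting are not given in the sources used here. The 54429 symbols of the files were joined by name, except 26 that had turned into dates in WT replicate 2 and Tau replicate 2, which were joined by position. Lengths and positions came from GENCODE M21 (GRCm38), in which 53669 symbols matched a single gene. RefSeq promoters were held for 6 of the 7 genes, without Gabrd.

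Counts were analysed with edgeR 4.0.16 (R 4.3.3). filterByExpr with a minimum count of 10 and a minimum total of 15 kept 20409 genes, TMM scaled the libraries, and all 6 libraries entered 1 quasi-likelihood fit with 1 mean for each group (3 residual degrees of freedom, prior degrees of freedom 7.21, common biological coefficient of variation 12.3%). Calls needed a fold change of 1.2 or more with an unadjusted p under 0.05, the rule the study states. P-values were adjusted by Benjamini-Hochberg over all genes tested. Intervals cover 95%. CPM values use TMM library sizes, SDs are over libraries, and SEs come from the model. The scripts were tested on simulated data. The members and the gene lists were chosen with earlier results of these data known. Genes outside the 7 are named if they passed in any comparison, if they were among the 2 with the highest mean CPM of a list, or if they were among the 2 nearest in pattern to a member at a mean of at least 10 CPM. Some genes that this rule selects are not reported here. Gabrg1 is named for its position, and the library values of Mdga1, Slc6a11 and Gad1 were picked after they were seen. Alternatives were DESeq2 1.42.0 and its size factors, limma-voom (limma 3.58.1), library sizes alone, other filters, the compared groups only, a replicate block, a term for sex, other thresholds and leaving out libraries. The joint omission of 2 libraries and the longest-transcript lengths were chosen after seeing the data. No column of the files was left unused (0), and the p-values measure the spread between the libraries only.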

Additional observations from a re-analysis of the deposited data

How the results depend on the processing

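Over the alternatives for the log2 differences of the 7 genes in 3 comparisons, 268 values kept their direction and call, 8 gained a call, 6 lost it and 54 changed sign, mostly close to 0. With no call in the first comparison, 1 gene passed with a term for sex and with both the library labelled WT replicate 1 and Tau replicate 2 left out (Gabra5 in both), and leaving out 1 library at a time gave 0 to 1. In the second, 2 passed with the term for sex, and leaving out 1 library gave 0. In the third, the 1 call became 0 with library sizes alone, with at least 10 counts in every library, with an adjusted p under 0.05 and with a fold change of at least 1.5, and 0 to 1 with 1 library left out, although without the library labelled WT replicate 1 the 1 gene was Gabra5 and not Gabra2. The other GABA genes gave 0, 0 and 0 by adjusted p and 2, 1 and 1 at a fold of 1.5, beside 6, 5 and 5. With treatment they gave 10 without a filter and 10 with the term for sex, where 6.78% and 8.05% of all genes passed. The count with treatment also rose with both libraries left out. In treated Tau against WT mice they gave 9 with library sizes alone and 10 with the term for sex, where 9.87% and 10.1% of all genes passed. Leaving out 1 library changed the count of these genes by over 1.5 times in some fit of each comparison. The cause was not tested, except that 2 of the thresholds are stricter by construction.

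In Tau against WT mice, Gabra3 (0.00017) became -0.00088 with DESeq2 size factors, -0.071 with library sizes alone, -0.0045 without a filter, -0.022 with at least 10 counts, -0.00089 with DESeq2, -0.0022 with limma-voom and -0.0068 with the 2 groups only. Library sizes alone also gave Gabra5 -0.0306, Gabrb1 -0.0311 and Gabrd -0.057, at least 10 counts gave Gabrd -0.0095, and the term for sex gave Gabra2 -0.026, Gabrb1 -0.083 and Gabrd -0.067. With treatment, Gabra5 became 0.00286 with DESeq2 size factors, 0.028 with library sizes alone, 0.0054 with at least 10 counts and 0.00293 with DESeq2, and the term for sex gave Gabra4 0.082 and Gabrb1 0.15. Without both libraries Gabrb2 was -0.042 and Gabrd -0.0582 with treatment, and Gabra3 0.0086, Gabra4 -0.0010 and Gabrd -0.0304 against WT. In treated Tau against WT mice Gabra5 was -0.0023 with library sizes alone and -0.17 with the term for sex, which gave Gabrb1 0.0677.

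Leaving out 1 library at a time gave, in Tau against WT mice, -0.030 to 0.29 for Gabra2, -0.20 to 0.18 for Gabra3, 0.063 to 0.22 for Gabra4, -0.16 to 0.28 for Gabra5, -0.096 to 0.17 for Gabrb1, 0.019 to 0.14 for Gabrb2 and -0.089 to 0.11 for Gabrd. With treatment it gave -0.21 to 0.17 for Gabra3, -0.066 to 0.061 for Gabra5, -0.23 to 0.030 for Gabrb1, -0.056 to 0.087 for Gabrb2 and -0.058 to 0.14 for Gabrd. In treated Tau against WT mice it gave -0.072 to 0.0052 for Gabra3, -0.0042 to 0.15 for Gabra4, -0.17 to 0.28 for Gabra5, -0.19 to 0.068 for Gabrb1, 0.023 to 0.16 for Gabrb2 and -0.033 to 0.13 for Gabrd. A group left with 1 library was assumed to vary like the others.

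Nothing in the labels pairs libraries of the same replicate number, and deviations of same-numbered libraries correlated across genes at -0.034, -0.021 and -0.0034. With a replicate block, 0, 0 and 1 of the 7 genes passed, and 6, 4 and 5 of the other GABA genes, so the block changed no count by over 1.5 times. With the block, Gabra3 was at -0.0074 in Tau against WT mice and Gabra5 at 0.0050 with treatment, both close to 0 as without it.

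Each of the 7 genes had 869 to 10749 counts a library. With 2 libraries a group, the 95% intervals give the precision of each difference.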
